A study of Homo sapiens with 14 samples.

Results

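The clustered protocadherins are the genes of 3 neighbouring arrays, alpha, beta and gamma, on human chromosome 5. They were taken as the protein-coding genes whose symbol begins PCDHA, PCDHB or PCDHG followed by a number, or by A, B or C and a number. The rule found 53 of the 19974 protein-coding genes in RefSeq's table for GRCh38.p14, of which 15 are alpha, 16 beta and 22 gamma genes. The array ran from the start of PCDHA1 to the shared end of the gamma genes (GRCh38, chr5:140786140-141512975, 727 kb), and 200 kb on each side was read as well.

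The libraries were CUT&Tag, in which an antibody tethers the transposase Tn5 so that DNA near the target is cut and tagged for sequencing. All 14 were made in Jurkat cells, a human leukaemic T cell line. The labels name 2 lentiviral arms, shSATB1 (an shRNA against SATB1, genotype SATB1 knockdown) and shCtrl (a control shRNA). CTCF was mapped in 3 shSATB1 and 3 shCtrl libraries, H3K27ac in 2 shSATB1 and 2 shCtrl libraries, and SATB1 itself in 2 shCtrl libraries. Matrin 3 was mapped in 2 libraries whose labels give no shRNA. The series asks how SATB1, a chromatin organiser of T cells, bears on chromatin around CTCF sites. No label says that replicates were separate cultures, so each p-value speaks only of the spread among these libraries, which could be technical.

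Clustered protocadherins are cadherin-like cell surface proteins, best known from neurons, where each cell uses a few of them and so gains an identity that its own branches recognise. Each alpha and gamma gene is 1 variable first exon with its own promoter, spliced to constant exons that all genes of the array share. The beta genes have no constant exons, and each is a gene of a single coding exon. In human and mouse neural cells CTCF binds many of these promoters at a conserved sequence element and, with cohesin, loops the chosen promoter to enhancers that lie past the alpha and the gamma arrays. CTCF is the insulator and loop-anchor protein, H3K27ac marks active promoters and enhancers, and Matrin 3 is a nuclear matrix protein.

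All 15 alpha genes shared the annotated end 141012347 and all 22 gamma genes the end 141512975, while each had a start of its own. The alpha array measured 226 kb, the beta array (chr5:141051374-141249365) 198 kb and the gamma array (from 141330514) 182 kb. Between them lay 39.0 kb past the alpha end and 81.1 kb past the beta end. A peak at such a shared end touches every gene of its array at once.

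The promoter sequences are shown first because CTCF calls at these genes' starts were few while the core of the sequence element was common. RefSeq promoters (GRCh38.p14, 250 bases before to 50 after the start, plus strand) were matched for 47 of 53 members. The conserved element was searched by its core CGCT, which is in capitals below. On the given strand CGCT stood in 46 of 47 members' promoters (97.9%), against 65.0% of all 15813 promoters; on either strand the shares were 97.9% and 81.0%. Its first base lay between 90 and 30 bases before the start in 42 of 47 members (89.4%), against 24.1% of all promoters. By array these were 12 of 13 alpha, 12 of 14 beta and 18 of 20 gamma genes, with a median position of -55 bases from the start. PCDHA9 was the member without CGCT. The window was chosen after the sequences were seen, and a match describes letters, not a bound site. Nor does CGCT in the window mark the whole element. The 24 bases around it matched those of PCDHA8 at 10 (PCDHAC2) to 22 (PCDHA6) positions in other alpha genes. In other gamma genes they matched those of PCDHGA10 at 6 (PCDHGB6 and PCDHGB7) to 22 (PCDHGA8) positions. The CGCT compared was the one nearest to 50 bases before the start. PCDHGB6 has another CGCT further upstream, which was not compared, so its 6 does not mean that the promoter lacks the element.

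Around CGCT the letters differed by array, as 24 bases from each of 8 members show. PCDHA8 and PCDHGA10 had CTCF at the start in all 6 CTCF lists, and the others shown had it in none; the other alpha and gamma examples are among those with the closest letters, and the beta ones are examples of an array without calls.
PCDHA8 (chr5:140841136-140841159): cacatgatgtCGCTgtctaccaag
PCDHA6 (chr5:140827903-140827926): cgcatgatgtCGCTgtctaccatg
PCDHA2 (chr5:140794787-140794810): cacatgatgtCGCTgtccaccata
PCDHB2 (chr5:141094550-141094573): cgcggggtggCGCTgcagccttag
PCDHB16 (chr5:141182316-141182339): cgcgtggtggCGCTgcaggttaag
PCDHGA8 (chr5:141392574-141392597): ctgtaagcgcCGCTgttcacctac
PCDHGA9 (chr5:141402720-141402743): ctctgagcgcCGCTgttgatcaac
PCDHGA10 (chr5:141412937-141412960): ctctgagcgcCGCTgttcacctac

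For each array the most frequent run of 12 bases with CGCT in it was then read from its promoters (10 bases for gamma). The run CATGATGTCGCT stood in 8 of 13 alpha promoters and in no other of the 15813 (0.0506% of all). The run GGTGGCGCTGCA stood in 10 of 14 beta promoters, which were the only 10 on the given strand (0.0632% of all). The shorter run GCGCCGCTGT stood in 9 of 20 gamma promoters and 19 of all promoters (0.120%). The runs were picked on these promoters, so their counts are no test. The 24 bases of PCDHA8 matched those of PCDHA6 at 22 positions and those of PCDHA2 at 21, and those of PCDHGA10 matched PCDHGA8 at 22 and PCDHGA9 at 21. A member without a CTCF call could therefore carry nearly the same letters as a member with calls in every list.

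Whole promoters are given for PCDHA8, PCDHGA10 and PCDHGB6, the members with CTCF in every shCtrl list, for PCDHGA9, the uncalled neighbour of PCDHGB6, and for PCDHB2, a beta gene without a call. Capitals mark each CGCT on the given strand. The PCDHGB6 promoter holds 2 of them, the first inside the gamma run.
PCDHA8 (chr5:140840937-140841236): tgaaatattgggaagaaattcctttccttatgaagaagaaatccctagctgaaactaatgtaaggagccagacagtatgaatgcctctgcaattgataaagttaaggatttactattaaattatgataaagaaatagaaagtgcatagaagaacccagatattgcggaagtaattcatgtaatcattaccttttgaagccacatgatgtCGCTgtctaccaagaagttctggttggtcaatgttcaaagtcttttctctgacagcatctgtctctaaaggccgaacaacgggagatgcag
PCDHB2 (chr5:141094365-141094664): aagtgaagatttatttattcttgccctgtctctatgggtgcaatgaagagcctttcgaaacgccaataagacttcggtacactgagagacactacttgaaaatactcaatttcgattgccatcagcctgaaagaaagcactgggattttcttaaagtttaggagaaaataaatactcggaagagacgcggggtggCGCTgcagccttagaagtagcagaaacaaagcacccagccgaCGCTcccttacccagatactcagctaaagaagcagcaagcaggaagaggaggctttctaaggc
PCDHGA9 (chr5:141402528-141402827): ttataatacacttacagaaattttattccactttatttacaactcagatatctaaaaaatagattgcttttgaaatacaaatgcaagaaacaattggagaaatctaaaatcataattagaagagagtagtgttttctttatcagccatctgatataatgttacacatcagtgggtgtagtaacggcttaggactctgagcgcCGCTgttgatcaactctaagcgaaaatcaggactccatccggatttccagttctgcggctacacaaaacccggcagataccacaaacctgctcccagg
PCDHGB6 (chr5:141407771-141408070): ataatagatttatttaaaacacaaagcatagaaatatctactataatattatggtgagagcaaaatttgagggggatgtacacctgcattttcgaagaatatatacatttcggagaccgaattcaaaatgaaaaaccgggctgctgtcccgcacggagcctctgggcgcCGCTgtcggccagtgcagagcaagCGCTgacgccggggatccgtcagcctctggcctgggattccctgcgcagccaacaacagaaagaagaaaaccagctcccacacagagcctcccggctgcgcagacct
PCDHGA10 (chr5:141412737-141413036): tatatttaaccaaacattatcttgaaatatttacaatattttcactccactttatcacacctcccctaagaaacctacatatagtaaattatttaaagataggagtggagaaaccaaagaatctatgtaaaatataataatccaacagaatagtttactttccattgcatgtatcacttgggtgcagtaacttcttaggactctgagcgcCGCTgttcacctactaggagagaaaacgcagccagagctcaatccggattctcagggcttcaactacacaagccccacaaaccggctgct

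These promoters were also poor in CpG, the dinucleotide at which DNA is methylated. In 300 bases the members held a median of 7 CpG (range 2 to 27), against a median of 22 in all promoters. PCDHA8 had 4, PCDHGA10 had 5, PCDHGB6 had 16 and PCDHGB7 had 11, so the promoters with calls spanned both sides of the members' median. DNA methylation was not measured here.

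Each library came with 1 list of peaks, and each peak carries a total and a maximum signal as the authors' caller gave them. The CTCF lists held 14695, 17904 and 20284 peaks in shSATB1, against 31270, 31141 and 32540 in shCtrl. The lowest total signal listed was 6017 to 7332 in the CTCF shSATB1 lists and 13359 to 14792 in the CTCF shCtrl lists. Depth is unknown, so the length of a list and where its calling stopped moved with the arm, and their part in the results was not tested. H3K27ac lists held 17925 and 15972 peaks in shSATB1 and 17863 and 17141 in shCtrl. The SATB1 lists held 15210 and 14726 peaks and the Matrin 3 lists 24566 and 2105. The SATB1 lists shared 40.8% of the exact peak starts of the shorter list, against at most 1.03% in the other 90 pairs of lists, and were counted as 1 sample. A peak is ranked here by the percentile of its maximum signal within its own list. Such ranks describe a list, and ranks from lists of different length show no change.

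T cell markers fitted the label. H3K27ac lay within 2 kb of the start in both lists of both arms at all 7 T cell markers with a known start (CD3D, CD2, CD28, LCK, ZAP70, BCL11B and TCF7). It did so at 1 of 3 B cell markers, CD79A, and at none of 2 myeloid and 3 neuronal markers.

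**Figure D1:**
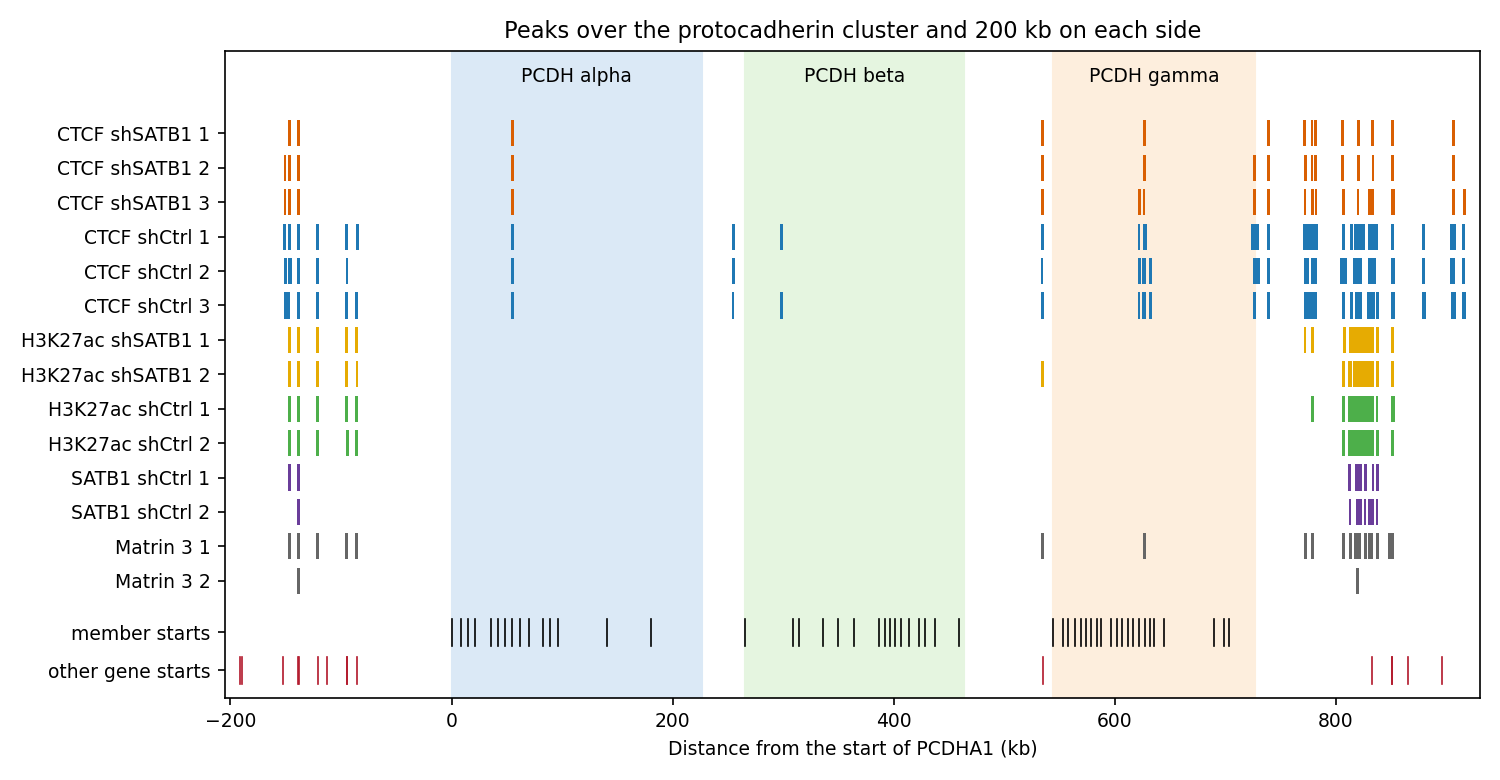
Peaks of the 14 lists (rows) over the protocadherin cluster and 200 kb on each side, by distance in kb from the start of PCDHA1; shaded blocks are the alpha, beta and gamma arrays, and ticks at the bottom are gene starts. CTCF was called at few places inside the cluster, 3 to 5 peaks in shSATB1 lists and 7 or 8 in shCtrl lists, while SATB1 peaks lay on both sides and none inside.

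SATB1 was not called anywhere in the protocadherin cluster. Both SATB1 lists had 7 peaks in the flanks and 0 over the 727 kb of the cluster. No member had SATB1 within 2 kb of its start in either list (0 of 53), against 23.9% of the 15819 protein-coding genes with a known start in both lists and 28.4% in at least 1 list. The last SATB1 peak before the cluster lay 137 and 138 kb upstream, over the facing starts of NDUFA2 and IK. The first one past it lay 84.3 and 84.9 kb downstream, inside DIAPH1. The stretch between them measured 948.6 and 949.4 kb, against median gaps of 45.1 and 47.7 kb between neighbouring SATB1 peaks. Gaps at least as long made up 4.01% and 4.16% of all gaps in the lists. By number, such gaps were thus a small part of all gaps, 609 and 612 in the 2 lists. Long gaps span a larger share of sequence than of gaps, and that share was not worked out.

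H3K27ac was all but missing from the cluster in both arms. No member had it at the start in any of the 4 lists (0 of 53), against 36.7% of genes in both shSATB1 lists, 38.3% in both shCtrl lists and 45.1% in at least 1 of the 4. No member was therefore among the 0.468% of genes called in both shSATB1 lists only or the 0.727% called in both shCtrl lists only. The cluster held 0 and 1 H3K27ac peaks in shSATB1, against 0 and 0 in shCtrl. The lone peak, in shSATB1 replicate 2, lay at the start of TAF7, a general transcription factor gene between the beta and gamma arrays that is no protocadherin, at percentile 0.851 of its list. Over cluster and flanks there were 11 and 11 H3K27ac peaks in shSATB1 and 10 and 9 in shCtrl (11 ± 0 and 9.5 ± 0.707, SD, n = 2 each; difference 1.5, exact permutation p = 0.333, the smallest that 2 against 2 can give). Nearly all H3K27ac was in the flanks.

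Matrin 3 was called at a single member. PCDHGA10 had a Matrin 3 peak at its start in the longer list, at percentile 12.5, and in that list 49% of all genes had one. The shorter list called 8.1% of genes and no member, and both lists together called 8.02% of genes and 0 of 53 members. The longer list also had a Matrin 3 peak at the start of TAF7, at percentile 43.9, and none elsewhere in the cluster.

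CTCF was the target that reached into the protocadherins, and it reached the starts of few of them. In shSATB1 lists 2, 2 and 3 members had CTCF within 2 kb of the start, against 3, 5 and 5 in shCtrl lists. Every CTCF list held the same single alpha gene, PCDHA8, and none held a beta gene. The gamma genes called numbered 1, 1 and 2 in shSATB1 and 2, 4 and 4 in shCtrl. Members called averaged 2.33 ± 0.577 in shSATB1 and 4.33 ± 1.15 in shCtrl (SD, n = 3 each; difference -2.00, two-sided exact permutation p = 0.2), and shSATB1 replicate 3 and shCtrl replicate 1 both had 3. With all lists shortened to the 14695 highest peaks the members averaged 2.33 in shSATB1 and 2.00 in shCtrl, a difference of 0.333 in the other direction (exact permutation p = 1). In the upper 50% of each list by maximum signal there were 0 members in each shSATB1 list and 2.0 on average in shCtrl (difference -2.00, exact permutation p = 0.1). That cut keeps fewer peaks in shSATB1 than in shCtrl, so it does not compare lists of equal length.

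**Figure D2:**
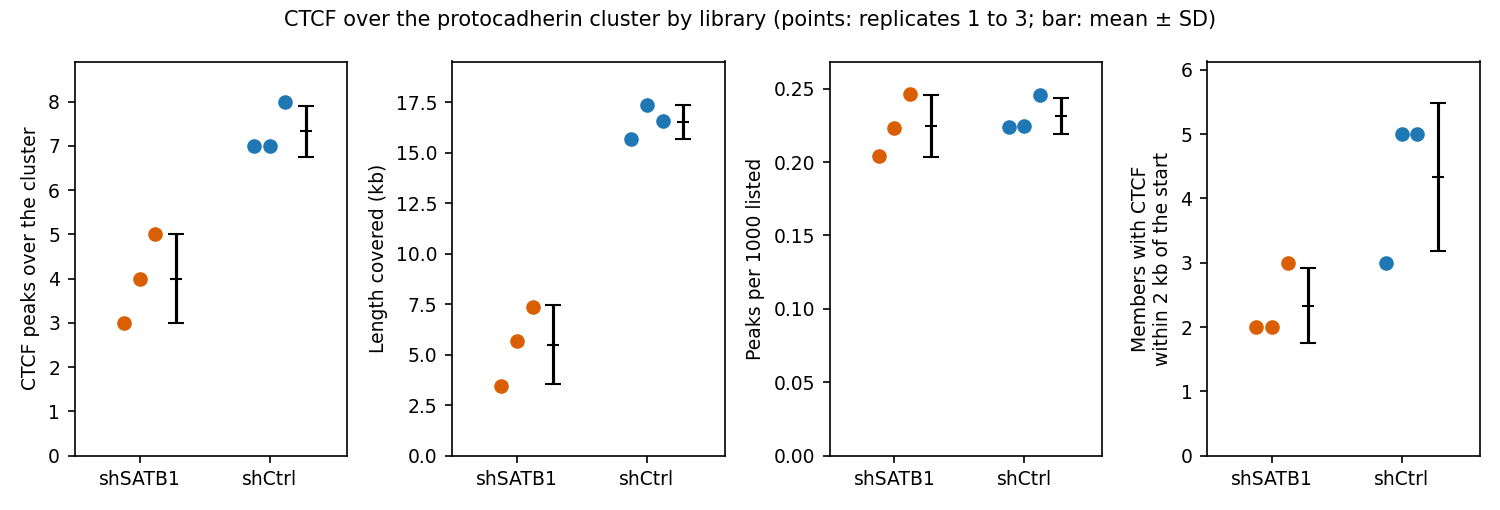
CTCF in each library (points, replicates 1 to 3 from left to right; bars, mean ± SD, n = 3), shSATB1 left of shCtrl, as peaks over the cluster, kb covered, peaks per 1000 listed and members with CTCF within 2 kb of the start. Peaks and covered length do not overlap between arms (4.0 and 7.33 peaks on average), while peaks per 1000 listed do (0.225 and 0.231).

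Read against the starts of all genes, these counts were low. Of 53 members, 2 (PCDHA8 and PCDHGA10) had CTCF in every shSATB1 list, against 35.6% of genes. In every shCtrl list there were 3 (PCDHA8, PCDHGB6 and PCDHGA10), against 55.1%, and in at least 2 of 3 shCtrl lists 5, with PCDHGB7 and PCDHGA11 added, against 57.6%. All 6 lists called 2 members, against 35.6% of genes. At 48 members (90.6%) no CTCF list had a peak at the start, against 40.2% of genes, and the same 48 had no peak of any of the 14 lists, against 38.2%. They were 14 of 15 alpha, 16 of 16 beta and 18 of 22 gamma genes. No member was called in every shCtrl list and no shSATB1 list (0 of 53, against 8.36% of genes), nor in every shSATB1 list and no shCtrl list (0 of 53, against 0% of genes). Among the genes called in every shCtrl list, 2 of the 3 members and 64.7% of all such genes were called in all 6, and 0 of 3 and 15.2% were called in no shSATB1 list. With 3 members in it, that comparison carries little.

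PCDHA8 (chr5:140841187-141012347 from its start to the shared alpha end) was the alpha gene with CTCF. Its region ranked at percentiles 15.7, 38.1 and 35.9 in shSATB1 lists and 53.3, 49.1 and 55.7 in shCtrl lists. The maximum signal there was 17, 26 and 26 in shSATB1 and 66, 64 and 78 in shCtrl, in unscaled units. It covered 1149, 1338 and 1247 bp in shSATB1, against 1857, 2005 and 1524 bp in shCtrl, so the widths do not overlap (ratio of means 0.693, log2 -0.53, exact permutation p = 0.1, the smallest that 3 against 3 can give). Of the 12184 CTCF regions called in all 6 lists, 78% were likewise shorter in every shSATB1 list than in every shCtrl list. Their median ratio was 0.576. At PCDHA8 the highest point lay 251 to 545 bases past the start, with a median of 534. It was not at the CGCT, which begins 41 bases before the start. Alpha variable exons are known for a further CTCF site inside the exon, but the files do not mark exons, so this was not tested.

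PCDHGA10, of the gamma A subfamily, carried the most strongly ranked CTCF at any member start in shCtrl. Its percentiles were 12.3, 32.1 and 33.0 in shSATB1 and 75.8, 71.0 and 71.0 in shCtrl. The region covered 1123, 1101 and 2064 bp in shSATB1, against 3669, 3118 and 3543 bp in shCtrl (ratio of means 0.415, log2 -1.27, exact permutation p = 0.1). Every shSATB1 width was below every shCtrl width, as at 78% of the 12184 regions called in all 6 lists. The highest point lay from 18 bases before to 83 bases after the start in the 6 lists, next to the CGCT at -40.

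PCDHGB6, of the gamma B subfamily, was called in shSATB1 replicate 3 alone of its arm, at percentile 33.0, and in every shCtrl list, at 46.3, 57.4 and 48.6. Its maximum lay 33 to 75 bases past the start. PCDHGB7 was called in no shSATB1 list and in shCtrl replicates 2 and 3, at percentiles 4.02 and 16.1, among the weakest peaks of those lists. PCDHGA11 was counted only because the PCDHGB7 region reached into its 2 kb window. The 24 bases around the CGCT nearest to 50 bases before the start were the same in PCDHGB6 and PCDHGB7 at 24 of 24 positions. In PCDHGB6 that is the second of its 2 CGCT, at -57, and in neither gene is it the CGCT of the gamma run. Variable exons of 1 array are near copies, the alignment filter is not given in the sources used here, and reads from such stretches cannot be assigned with certainty.

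**Figure D3:**
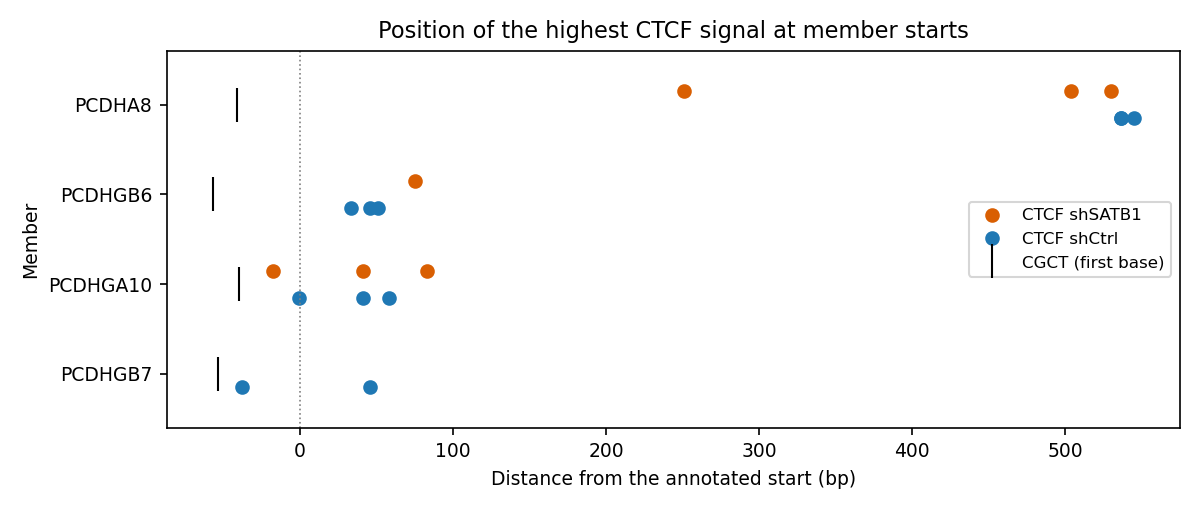
Distance in bases from the annotated start to the highest CTCF signal for the 4 members with a region of their own, shSATB1 lists above shCtrl lists within each row, with the first base of the CGCT nearest to 50 bases before the start as a black bar. The maxima of the gamma genes sit within 83 bases of the start, and those of PCDHA8 251 to 545 bases past it. For PCDHGB6 and PCDHGB7 the bar marks a CGCT outside the gamma run, unlike that of PCDHGA10.

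Over the whole cluster the CTCF lists merged into 8 regions, 4 of them at member starts. The others lay between the alpha and beta arrays, before PCDHB2, at TAF7 and at the shared end of the gamma genes. Over the cluster there were 3, 4 and 5 peaks in shSATB1 lists and 7, 7 and 8 in shCtrl lists (4.0 ± 1.0 and 7.33 ± 0.577, SD, n = 3 each; difference -3.33, exact permutation p = 0.1). Covered length was 5.50 ± 1.97 kb in shSATB1 and 16.5 ± 0.851 kb in shCtrl (difference -11.0 kb, exact permutation p = 0.1). These arms do not overlap, but the shSATB1 lists were shorter everywhere. Per Mb of sequence the cluster held 4.13, 5.50 and 6.88 CTCF peaks in shSATB1 lists and 9.63, 9.63 and 11.0 in shCtrl lists. Over all chromosomes, each read up to its last peak, the lists held 4.85, 5.91 and 6.70 in shSATB1 and 10.3, 10.3 and 10.7 in shCtrl. CTCF was thus low at member starts, while its density over the cluster stood near that of the whole lists. Per 1000 listed peaks the cluster held 0.225 ± 0.0212 peaks in shSATB1 and 0.231 ± 0.0124 in shCtrl (difference -0.00681, exact permutation p = 0.7). Of each Mb listed, 163 ± 20.2 bp in shSATB1 and 174 ± 12 bp in shCtrl lay in the cluster (exact permutation p = 0.6). Without shSATB1 replicate 1 the difference per 1000 listed was 0.00346, and without shCtrl replicate 3 it was 0.000368, so its direction rests on single libraries. In the upper 50% of each list the cluster held 0.0329 peaks per 1000 in shSATB1 and 0.316 in shCtrl (difference -0.283, exact permutation p = 0.1), and at equal list length 0.272 in shSATB1 and 0.340 in shCtrl (difference -0.0681, exact permutation p = 0.4). Covered length at equal list length was 5.50 kb in shSATB1 and 12.1 kb in shCtrl (difference -6.65 kb, exact permutation p = 0.1).

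Array by array, the alpha array held 1 CTCF peak in each of the 6 lists and the stretch between beta and gamma also 1. The beta array held 0, 0 and 0 in shSATB1 and 1, 0 and 1 in shCtrl. In the gamma array there were 1, 2 and 3 in shSATB1 and 3, 4 and 4 in shCtrl (exact permutation p = 0.2). The gap between alpha and beta held none in shSATB1 and 1 in each shCtrl list.

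**Figure D4:**
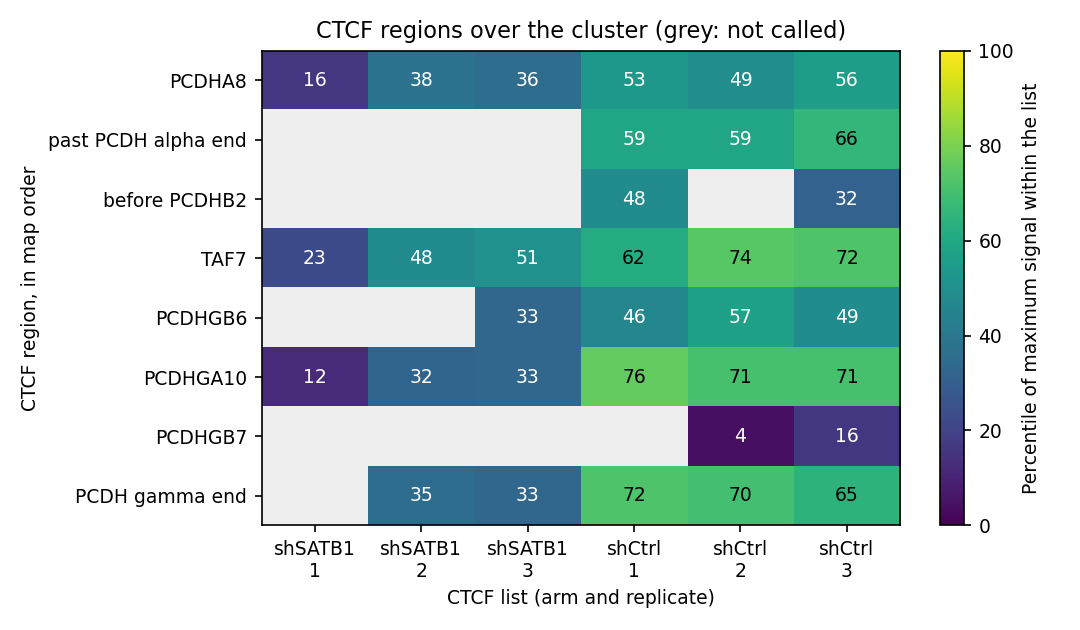
Percentile of the maximum signal within its own list (colour and number) for the 8 CTCF regions of the cluster in map order, with the 3 shSATB1 lists left of the 3 shCtrl lists; grey means not called. The PCDHA8, TAF7 and PCDHGA10 regions are called in all 6 lists, and the region past the alpha end in the 3 shCtrl lists only.

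The region between the alpha and beta arrays (chr5:141039653-141042666) was the one called in every shCtrl list, at percentiles 59.1, 58.7 and 66.3, and in no shSATB1 list. Its highest point lay 29.0 kb past the alpha end and 10.0 kb before the start of PCDHB1. An alpha enhancer, HS5-1, is known downstream of the alpha constant exons and binds CTCF in neurons; the files do not annotate it, and whether this region is that enhancer was not tested. By the same call 1 of 8 cluster regions and 3 of 16 flank regions were lost, against 22.7% of all 34146 CTCF regions. None of the 8 was called in every shSATB1 list and no shCtrl list, against 0.00879% of all regions. The count of lost regions was 2 without shSATB1 replicate 3 (PCDHGB6 added), without shCtrl replicate 1 (PCDHGB7 added) or without shCtrl replicate 2 (the region before PCDHB2 added).

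The region before PCDHB2 (chr5:141083819-141085506), 10.0 kb upstream of that gene, was the only CTCF in the beta array. It was called in no shSATB1 list and in shCtrl replicates 1 and 3, at percentiles 48.2 and 31.6. The TAF7 region (chr5:141319148-141321485) ranked at percentiles 22.6, 48.3 and 50.5 in shSATB1 and 61.7, 73.8 and 72.4 in shCtrl, 10.1 kb before PCDHGA1. Its widths of 1180, 1717 and 1607 bp in shSATB1 and 1670, 2169 and 2131 bp in shCtrl overlap (log2 ratio -0.41, exact permutation p = 0.2). All 3 regions called in all 6 lists, PCDHA8, TAF7 and PCDHGA10, had a ratio below 1, as did 99.5% of all 12184 regions called in all 6 lists. Across those 12184 the median ratio was 0.576 (log2 -0.80), and 78% were shorter in every shSATB1 list than in every shCtrl list, as were PCDHA8 and PCDHGA10, while 0.0246% were longer.

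The region at the shared gamma end (chr5:141509024-141516981) touched 22 members at once. It was absent in shSATB1 replicate 1 and ranked at percentiles 35.2 and 33.0 in the other shSATB1 lists, against 72.3, 70.2 and 64.5 in shCtrl. It covered 1747 and 1293 bp in those shSATB1 lists and 7302, 6295 and 2421 bp in shCtrl. Counted by either annotated end, 2, 23 and 23 members had CTCF in shSATB1 and 23, 23 and 23 in shCtrl (difference -7.00, exact permutation p = 1), and 22 of each 23 come from this region. The count by either end is a statement about 1 region and 1 library.

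Of the regions called in at least 2 of 3 shCtrl lists, the shSATB1 lists called 37.5%, 50% and 62.5% of the 8 in the cluster. In the flanks they called 56.3%, 62.5% and 68.8% of 16, and over all chromosomes 43.5%, 53.0% and 60.1% of 30205. The regions called in all 6 lists were 3 of 8 in the cluster and 9 of 16 in the flanks, against 35.7% of all. The cluster's share stood close to that of all regions in every shSATB1 list, with 1 region in the cluster worth 12.5 percentage points.

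Some genes next to the cluster carried marks that the protocadherins lacked, and others had no peak at the start. Of these neighbours with a known start, only NDUFA2, IK and DIAPH1 had SATB1 there. In the upstream flank, NDUFA2, a subunit of respiratory complex I, and IK, a splicing factor, share a start window. It had SATB1 at percentiles 68.9 and 53.6, CTCF in all 6 lists, H3K27ac in all 4 and Matrin 3 in both. HARS1 and HARS2, the histidyl-tRNA synthetases, also share a window, with H3K27ac in all 4 lists and CTCF in no shSATB1 list but in every shCtrl list, at percentiles 26.1, 13.5 and 16.1. WDR55 had the same calls, and ZMAT2 had H3K27ac in all 4 lists and CTCF in shCtrl replicates 1 and 3 only. CD14, a monocyte receptor gene, had no H3K27ac and had CTCF in shSATB1 replicates 2 and 3 and in all shCtrl lists. TMCO6, DND1 and LOC112267855 had no peak at the start.

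Downstream, DIAPH1, a formin that builds actin filaments, had at its start SATB1 at percentiles 25.4 and 31.0 and CTCF at 87.8, 78.7 and 91.1 in shSATB1 and 95.5, 94.9 and 96.6 in shCtrl. A broad H3K27ac peak over its start and first part ranked at percentiles 99.8 and 99.4 in shSATB1 and 99.5 and 98.9 in shCtrl. HDAC3, a histone deacetylase, and RELL2 share a window with CTCF and H3K27ac in every list and no SATB1, and FCHSD1 and ARAP3 had no peak at the start. Leaving out the peak at the gamma end, which reaches into the cluster, downstream CTCF peaks numbered 9, 9 and 11 in shSATB1 and 12, 10 and 11 in shCtrl (exact permutation p = 0.3), and upstream ones 2.67 ± 0.577 in shSATB1 and 5.67 ± 0.577 in shCtrl (exact permutation p = 0.1). Per 1000 listed, the downstream flank so counted held 0.552 ± 0.0556 peaks in shSATB1 and 0.348 ± 0.0324 in shCtrl (SD, n = 3 each; exact permutation p = 0.1). By length it held 532 ± 61.4 bp of each Mb listed in shSATB1 and 540 ± 57.5 bp in shCtrl (gamma-end overhang included; exact permutation p = 0.8). Some shCtrl peaks there spanned several of shSATB1: a stretch with 3 peaks in each shSATB1 list was 1 peak in shCtrl replicates 1 and 3. The upstream flank held 109 bp of each Mb listed in shSATB1 and 113 bp in shCtrl (exact permutation p = 0.6). Per 1000 listed it held 0.151 ± 0.0159 peaks in shSATB1 and 0.179 ± 0.0164 in shCtrl (exact permutation p = 0.2). Cluster and flanks together held 0.928 in shSATB1 and 0.758 in shCtrl (difference 0.170, exact permutation p = 0.1), the direction opposite to that of the cluster alone. By length they held 804 bp of each Mb listed in shSATB1 and 827 bp in shCtrl (difference -22.7, exact permutation p = 0.7), the same direction as the cluster. The difference between cluster and flanks was not itself tested.

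The nearest CTCF peak outside the cluster lay 11.5, 11.5 and 11.7 kb downstream in shSATB1 and 11.1, 11.1 and 11.0 kb in shCtrl. Upstream the distance was 138 kb in each shSATB1 list, at the NDUFA2 and IK window, and 84.6, 94.1 and 85.1 kb in shCtrl, at ZMAT2 or the HARS1 and HARS2 window.

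Protocadherins outside the 3 arrays gave a comparison list of 11, of which 9 had a known start. Their distances from each other and from the cluster were not measured, so they need not be independent. PCDH1, PCDH9 and PCDH12 had CTCF in every shSATB1 and every shCtrl list, and PCDH7 in shCtrl replicates 2 and 3 only. That is 3 of 9 in each arm, against 35.6% of all genes in shSATB1 and 55.1% in shCtrl. PCDH9 alone had SATB1, at percentiles 80.0 and 79.9, with H3K27ac in both lists of both arms. For SATB1 this is 1 of 9, against 23.9% of all genes. For H3K27ac it is 1 of 9, against 36.7% in shSATB1 and 38.3% in shCtrl. Of 16 genes known to regulate the cluster, 14 had a known start. CTCF lay at 9 of them in every shSATB1 list (35.6% of all genes) and at 13 in every shCtrl list (55.1% of all genes), and 0 were lost from the shSATB1 arm (8.36% of all genes). H3K27ac lay at 11 in both lists of each arm (36.7% of all genes in shSATB1 and 38.3% in shCtrl), among them the CTCF gene itself, the cohesin genes SMC1A, SMC3, STAG1 and STAG2 and the silencing factor gene SMCHD1. SATB1 lay at 5 in both lists (23.9% of all genes). Peaks at these genes do not measure their expression.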

How the data were processed

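CUT&Tag peak lists, 1 per library and called per sample, were deposited by the authors. Each deposited peak has a total signal (its summed coverage) and a maximum signal (its highest coverage), in whole numbers without recorded scaling. Tools named are SEACR, deepTools, SAMtools, Bowtie2 and Trim Galore, and for libraries other than Matrin 3 also MACS2, with the build GRCh38, per the submitters' processing notes. Their versions, how alignments were filtered and whether a control library was used are not given in the sources used here, and library depth is unknown.

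Autosomal and X peaks were kept, leaving out 405 of 273747 (0.148%). A gene was called in a list if a peak shared at least 1 bp with 2 kb on either side of its start. Starts and strands came from the RefSeq GRCh38.p14 promoter table, which gave 15819 protein-coding genes a start; 4155 without one were left out of the gene shares. The table covered 47 members, and 6 (PCDHA3, PCDHA13, PCDHB6, PCDHB11, PCDHGA12 and PCDHGC5) were read on the plus strand like the rest. Peaks of the 6 CTCF lists that shared at least 1 bp were merged into regions.

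Two-sided exact permutation tests over libraries compared the arms; the smallest possible p is 0.1 for 3 against 3 and 0.333 for 2 against 2, so none could pass 0.05. Gene and region counts stand beside the share of all genes or regions, with no further test. Members described for CTCF were those with CTCF at the start in at least 2 of 3 shCtrl lists. Neighbours named were the other protein-coding genes of the cluster and flanks with a known start, with or without a peak. Members and lists were chosen with earlier results of these data known. Same-numbered libraries did not deviate together (correlations -0.0435, 0.00481 and -0.0664 for CTCF and -0.0159 for H3K27ac), so replicate numbers were not taken as pairs. Alternatives were other windows, the upper part of each list, equal list length, windows on the maxima, bins, other extents, a block for the replicate number, and each library left out. Software was Python 3.11.15 with scipy 1.17.1, pandas 2.3.3, numpy 2.4.6 and, for figures, matplotlib 3.10.9. Positions are 1-based.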

Additional observations from a re-analysis of the deposited data

How the results depend on the processing

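Of 104 values recomputed under another setting, 91 kept the direction or count, 5 turned the direction and 8 moved a count. Many of the 91 were counts of 0 that stayed 0, some under settings that could not raise them. These were 12 for regions gained in shSATB1, 8 for members with H3K27ac, 8 with SATB1 and 7 with Matrin 3. The replicate block keeps each difference by design, so the 91 do not measure stability. The difference in CTCF members (-2.00) was 0.333 with lists of equal length, where the cause was not tested, and -2.00 in the upper 50% of each list. The difference in CTCF peaks per 1000 listed (-0.00681) was 0.170 with 200 kb on each side and 0.0161 within 2 kb of member starts only, -0.0681 at equal list length and -0.283 in the upper 50%, and ran from -0.0177 to 0.00346 when each library was left out (0.00346 without shSATB1 replicate 1 and 0.000368 without shCtrl replicate 3). Lost CTCF regions, 1 in the cluster, numbered 3 in the upper 50% of each list, 4 with the flanks and 0 at member starts only. They numbered 1 to 2 when each library was left out. With bins of 1 kb in place of regions, 3 bins were lost, and 1 region can span several bins. Members with Matrin 3 in both lists, 0, were 0 to 1 when each list was left out, and 1 in the longer list alone. Peaks over the cluster differed by -3.83 to -3.00 and covered length by -12.0 to -10.0 kb when each library was left out. At equal list length the cluster held 4.0 peaks in shSATB1 and 5.0 in shCtrl (difference -1.0, exact permutation p = 0.4). Covered length then differed by -6.65 kb (exact permutation p = 0.1). In the upper 50% of each list, which is fewer peaks in shSATB1, the cluster held 0.333 peaks in shSATB1 and 5.0 in shCtrl (exact permutation p = 0.1). With the replicate number as a block the differences are the same, and the exact permutation p was 0.25 for peaks, 0.5 for peaks per 1000, 0.25 for covered length, 0.25 for members and 0.5 for H3K27ac peaks; the smallest p is 0.25 with 3 pairs and 0.5 with 2. An absent call is not an absent protein: with no depth, a weak site under where a list stopped was not detectable. Replicate libraries may be technical, and variable exons that resemble each other may limit how reads there can be assigned.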

Other observations

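Inside DIAPH1, downstream of the gamma array, peaks of every target met at nearly 1 place, about 820 kb past the start of PCDHA1. The broad H3K27ac peak had its highest signal there in both shSATB1 and both shCtrl lists. SATB1 had there its highest-ranked peak of the cluster and flanks in both lists, at percentiles 95.6 and 96.1. Matrin 3 was called there in both lists, at percentiles 90.5 and 13.9. CTCF was called there in all 6 lists at lower ranks, percentiles 15.7, 13.3 and 20.9 in shSATB1 and 45.3, 45.4 and 47.0 in shCtrl. The cluster itself, as given above, held no SATB1 peak and 1 H3K27ac peak in the 6 lists of those targets.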
